A study of Mus musculus with 24 samples.

Results

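The diet difference described here is that of mammary fat with no tumor: 4 libraries of fat from mice on a high-fat diet (HFD) against 4 of fat from mice on Chow, across all genes. The 8 libraries are those whose labels give the sample type as no tumor, of 24 in the series. The other 16, 4 for each diet and position, come from fat beside a tumor (peritumoral) and from the opposite side of tumor-bearing mice (contralateral), and serve here only to ask where the diet difference of tumor-free fat differs from theirs. All mice were C57BL/6, a common inbred laboratory strain, and all tissue was subcutaneous fat of the 4th mammary gland, flash frozen as a whole. Its total RNA had a DNase step, and Illumina libraries were made after removal of ribosomal RNA. The series describes the mice as lean and obese. Age, sex, composition of the diet and time on it are not given in the labels used here, nor is it said that the 4 libraries of a diet came from separate mice, so a p-value here reflects how far the 4 libraries of a diet lie apart, and that spread may be partly technical.

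The mammary fat pad is the subcutaneous depot in which the mammary ducts grow. Its bulk is white adipocytes, which store triglyceride in 1 large droplet and secrete hormones such as leptin, and around them lie capillaries, pericytes, fibroblast-like progenitors, macrophages, mast cells, nerves and mammary epithelium. When such a depot takes on lipid, adipocytes enlarge, new vessels form, matrix is remodelled and macrophages that carry lipid gather around dying adipocytes. In bulk tissue, fewer cells of a type and less RNA per cell cannot be told apart, which holds for every gene below.

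Total counts ran from 14979723 to 16533437 per library on HFD and from 16123753 to 16641785 on Chow, and 22315 to 22514 and 22144 to 22413 genes had a count. Mitochondrial ribosomal RNA took 21.61% ± 0.713 of the counts on HFD and 32.42% ± 2.375 on Chow (SD, n = 4 each), and the groups did not overlap. Adipocyte markers were abundant in all 8 libraries: Adipoq, the gene of adiponectin, stood at 1760, 2060, 2120 and 1970 CPM on HFD and at 1360, 1660, 1500 and 1610 CPM on Chow, in replicates 1 to 4 (CPM are counts scaled to library size with TMM factors over the 24 libraries, and the order is kept below). Glycam1, a marker of lymph node high endothelium, reached at most 0.39 CPM on HFD and 0.282 CPM on Chow, and 3 of the 8 lymph node genes in the table, Ccl19, Ccl21a and Chst4, had no count. The summed level of 15 skeletal muscle genes lay between 66.19 and 81.6 CPM on HFD, and on Chow at 38.21, 186.9, 1242 and 41.82 CPM, so that 1 Chow library, replicate 3, carried far more muscle RNA than the others. The principal component analysis put the diets apart on the first component, with 53.2% of the variance (23.66 to 36.16 on HFD, -34.59 to -23.85 on Chow). On the second, with 14.1%, Chow replicate 2 lay alone at -37.36, against -6.28 to 13.28 for the other 7 libraries. Many list counts below moved when this or another single library was left out, and are then given without it as well.

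The question of the comparison is how the diets differ in mammary fat when no tumor is present. Of 15827 genes tested, 3943 (24.9%) were called at an adjusted p under 0.05. Of these, 2160 (13.6% of the genes tested) were higher on HFD and 1783 (11.3%) were lower. More than 2-fold changes were found for 416 of the higher and 286 of the lower genes. The 4 libraries of each diet did not overlap for 4359 genes (27.5%). The median log2 fold change of all genes was -0.02 and the quartiles were -0.21 and 0.18. Fold changes are given as log2 of HFD over Chow with their SE, and the test is edgeR's quasi-likelihood test with Benjamini-Hochberg adjustment. The genes were read in 64 lists by role, which were chosen with earlier results of these data known. The shares of all genes above, 13.6% higher and 11.3% lower, are the background beside a list's counts. Because of that choice, a count describes the members of its list.

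**Figure D1:**
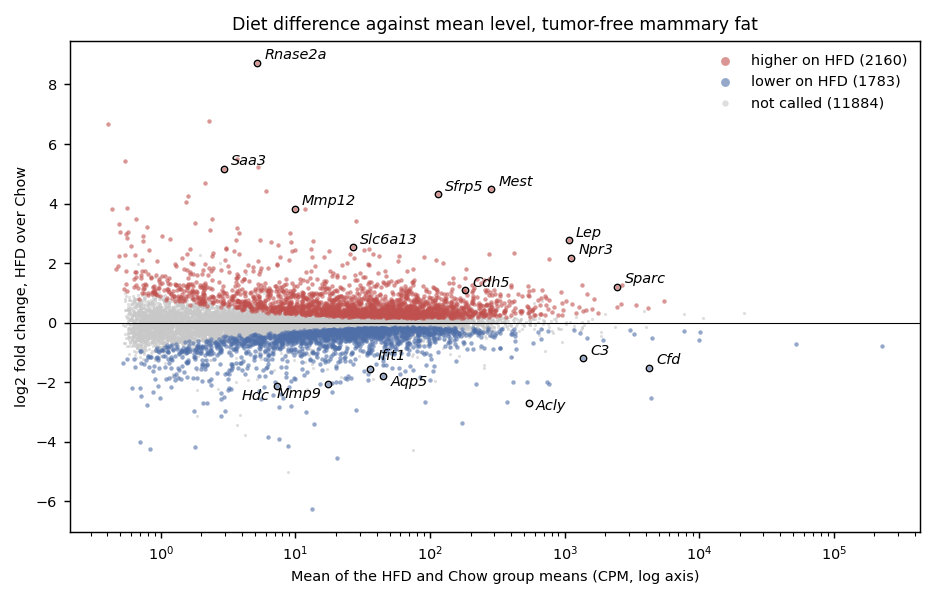
Diet difference (log2 fold change, HFD over Chow, y axis) against the mean of the group means in CPM (log x axis) for the genes tested, each point a gene, in red where called higher on HFD (2160), in blue where called lower (1783) and in grey where not called. Circled genes are named in the text; Mest and Sfrp5 lie above 4 on the y axis, Cfd, C3, Hdc and Mmp9 lie below 0, and Acly is grey because its Chow libraries ranged from 222 to 2680 CPM.

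**Figure D2:**
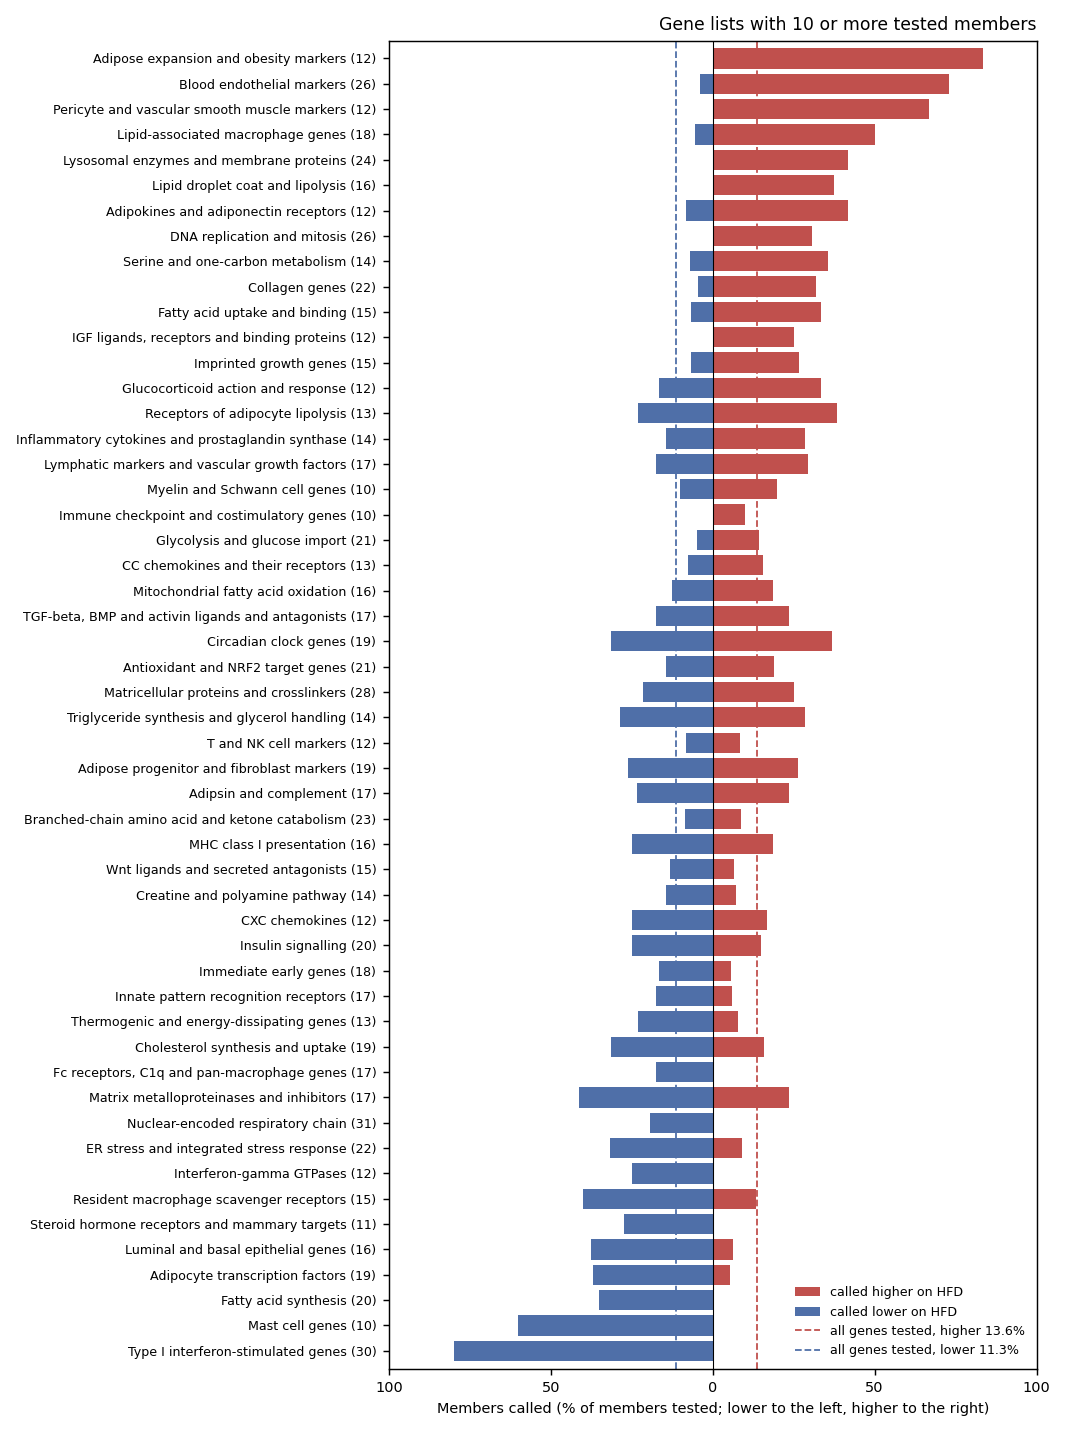
Share of tested members called higher on HFD (red, to the right) and lower (blue, to the left) for the lists with 10 or more tested members, the number tested in brackets. Dashed lines give the shares of all genes tested, 13.6% higher and 11.3% lower; the list of expansion markers lies at the top with 10 of 12 members higher, and that of type I interferon-stimulated genes at the bottom with 24 of 30 lower.

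Genes that mark growing fat had the largest share of higher calls among the lists with 10 or more tested members. Of 12 tested expansion markers, 10 were higher on HFD and 0 lower (1 without Chow replicate 1), with a median of 1.75. Lep (mm10, chromosome 6, 29060220 to 29073877, plus strand), the gene of the satiety hormone leptin, stood at 1790, 2050, 1490 and 2150 CPM on HFD, against 364, 235, 254 and 220 CPM on Chow (2.77 ± 0.18, adjusted p = 1.2e-05). Its lowest HFD library was far above its highest Chow library. Mest (chromosome 6, 30723547 to 30748455, plus strand), an imprinted gene of the alpha/beta hydrolase family that is known to track adipocyte enlargement, stood at 430, 609, 559 and 591 CPM on HFD, against 36.9, 13.1, 27.8 and 17.9 CPM on Chow (4.48 ± 0.35, adjusted p = 0.000156). Sfrp5 (chromosome 19, 42197971 to 42202252, minus strand), a secreted Wnt antagonist made by adipocytes, stood at 227, 251, 181 and 217 CPM on HFD, against 18.4, 4.65, 9.71 and 10 CPM on Chow (4.31 ± 0.38, adjusted p = 0.000293). These Chow levels differed among themselves by more than the HFD levels did in proportion, with Chow replicate 2 lowest for both. Npr3, the clearance receptor that removes natriuretic peptides, stood at 1780, 1930, 1770 and 1880 CPM on HFD, against 491, 430, 376 and 302 CPM on Chow (2.17 ± 0.13, adjusted p = 1.12e-06). Bmp3, a TGF-beta family ligand, stood at 140, 161, 142 and 149 CPM on HFD, against 40.8, 32.1, 29.9 and 22.5 CPM on Chow (2.21 ± 0.15, adjusted p = 1.43e-05). The list was assembled with results of these data known, so its count is a description of its members.

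Adipokines and adiponectin receptors did not move as 1 block. Of 12 tested genes of this list, 5 were higher (Lep, Cdh13, Apln, Adipor1 and Adipoq) and 1 was lower (2 without Chow replicate 1 or 2). Cdh13 and Adipor1 are receptors and not secreted products. The lower gene was Cfd (chromosome 10, 79890853 to 79892656, plus strand), which encodes adipsin, the protease of the alternative complement pathway and a product of lean fat. It stood at 2320, 2080, 2350 and 2170 CPM on HFD, against 5610, 6220, 5710 and 7530 CPM on Chow (-1.52 ± 0.1, adjusted p = 1.2e-06). C3, the complement protein on which adipsin's pathway acts, stood at 825, 846, 859 and 829 CPM on HFD, against 1750, 1750, 2010 and 2070 CPM on Chow (-1.2 ± 0.08, adjusted p = 8.52e-07). Neither gene overlapped between diets. Cdh13, a membrane receptor that binds adiponectin, stood at 84.5, 77.6, 77.7 and 82.3 CPM on HFD, against 40.1, 51.4, 38.9 and 35 CPM on Chow (0.93 ± 0.1, adjusted p = 5.69e-05). In the complement list as a whole, 4 of 17 members were higher and 4 lower; without Chow replicate 2, 8 were lower.

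Imprinted growth genes other than Mest were fewer. Of 15 tested, 4 were higher (Mest, Peg3, Peg10 and Plagl1) and 1 was lower (Cdkn1c); without Chow replicate 2, 6 were higher. Peg3, a zinc finger gene read from the paternal copy, stood at 811, 772, 671 and 730 CPM on HFD, against 285, 233, 335 and 403 CPM on Chow (1.22 ± 0.15, adjusted p = 0.00043). Igf2, a fetal growth factor of the same class, averaged 6.68 ± 1.12 CPM on HFD and 5.08 ± 0.958 CPM on Chow and was not called (adjusted p = 0.134). Among 15 Wnt ligands and antagonists, Sfrp5 was the only higher gene, and Wnt2 and Dkk2 were lower, with 1 lower without HFD replicate 4 or Chow replicate 3 or 4; Sfrp1, a related antagonist, was not called (0.19 ± 0.16, adjusted p = 0.435).

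Caveolae, the pits of the adipocyte and endothelial membrane, were higher on HFD in nearly every member. Of 8 tested caveolin and cavin genes, 7 were higher and 0 lower, with a median of 0.9. Cav1 (chromosome 6, 17306335 to 17341452, plus strand), their main coat protein, stood at 1750, 2020, 1930 and 2170 CPM on HFD, against 946, 1080, 1020 and 888 CPM on Chow (0.97 ± 0.09, adjusted p = 1e-05). Cavin3, a coat adaptor, stood at 181, 195, 197 and 228 CPM on HFD, against 84.9, 69.6, 76.7 and 78.4 CPM on Chow (1.34 ± 0.08, adjusted p = 8.37e-07).

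Genes of the lipid droplet rose in part. Of 16 tested, 6 were higher (Aqp7, Mgll, Plin2, Cidec, Plin5 and Plin4) and 0 lower, with 2 lower without Chow replicate 1 and 1 without Chow replicate 2. Plin1, the coat protein of the large droplet, was not among them, at 641, 698, 762 and 784 CPM on HFD and 570, 740, 677 and 692 CPM on Chow (0.08 ± 0.09, adjusted p = 0.576). Aqp7, the channel by which glycerol leaves the adipocyte, stood at 150, 174, 165 and 160 CPM on HFD, against 74.8, 85.5, 76.3 and 82.7 CPM on Chow (0.99 ± 0.07, adjusted p = 1.12e-06). The genes that take up fatty acids followed, with 5 of 15 higher and 1 lower (2 without Chow replicate 4). Cd36, a fatty acid transporter, stood at 3050, 3280, 3250 and 3280 CPM on HFD, against 1900, 2300, 1970 and 2020 CPM on Chow (0.62 ± 0.08, adjusted p = 0.000112). Gpihbp1, which anchors lipoprotein lipase on capillary endothelium, stood at 96.2, 97, 79.3 and 92.7 CPM on HFD, against 41.1, 42.6, 33.4 and 35.5 CPM on Chow (1.23 ± 0.09, adjusted p = 2.23e-06). It belongs to the endothelial list as well, which is described below.

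The receptors that set lipolysis split. Of 13 tested, 5 were higher (Npr3, Gipr, Adora1, Ptger3 and Ffar2) and 3 were lower (Hcar2, Ffar4 and Hcar1). Without HFD replicate 2 or 3 or Chow replicate 1, 3 were higher, and with limma 5 were lower. Gipr, the receptor of the gut hormone GIP, was low but separated, at 3.46, 2.73, 2.24 and 2.09 CPM on HFD, against 0.87, 0.846, 0.848 and 0.706 CPM on Chow (1.65 ± 0.23, adjusted p = 0.000332). Adrb3, the beta-3 adrenergic receptor, stood at 118, 88.7, 146 and 97.9 CPM on HFD and at 143, 227, 137 and 143 CPM on Chow. The groups overlapped and the gene was not called (-0.55 ± 0.22, adjusted p = 0.109), though it was with DESeq2 (adjusted p = 0.0176).

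Some genes of fatty acid synthesis were lower on HFD, and 1 Chow library stood far above the others. Of 20 tested genes, 0 were higher and 7 were lower (Mlxipl, Srebf1, Acaca, Acacb, Tkt, Elovl6 and Fasn), with a median of -0.99. The summed level of the list lay between 25820 and 29650 CPM on HFD, and on Chow at 24350, 62960, 25150 and 15110 CPM. Leaving Chow replicate 2 aside, this sum was not lower on HFD. Mlxipl (chromosome 5, 135106891 to 135138382, plus strand), the carbohydrate-responsive transcription factor ChREBP, stood at 47.5, 46.8, 48.4 and 51.2 CPM on HFD, against 84.4, 94, 74.2 and 92.1 CPM on Chow (-0.86 ± 0.08, adjusted p = 1.01e-05). The enzymes below it varied more among Chow libraries. Acly, which makes cytosolic acetyl-CoA, stood at 138, 148, 150 and 154 CPM on HFD, against 362, 2680, 488 and 222 CPM on Chow (-2.7 ± 0.87, adjusted p = 0.0685, not called). Fasn, the fatty acid synthase, stood at 805, 1440, 1510 and 1470 CPM on HFD, against 4230, 18500, 5040 and 2060 CPM on Chow (-2.54 ± 0.73, adjusted p = 0.0487). Every HFD library lay below every Chow library for both, and Chow replicate 2 was highest. Without it the difference was -1.31 for Acly (adjusted p = 0.0165) and -1.56 for Fasn (adjusted p = 0.0349), 9 list members were lower and 1 was higher. Leaving out any single other library except Chow replicate 4 ended the call of Fasn and left 3 or 4 list members lower; without Chow replicate 4, 9 were lower and Acly was called. With DESeq2 11 members were lower, with all 24 libraries in 1 fit 13, both with Acly among the calls (adjusted p = 0.00398 and 0.000807), and without a filter on low counts 3.

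Cholesterol genes moved both ways. Of 19 tested, 3 were higher (Hmgcs1 and Sc5d among them) and 6 lower (Srebf2, Cyp51, Sqle and Msmo1 among them); without Chow replicate 2, 6 were higher, and with all 24 libraries in 1 fit 2 were lower. Hmgcs1, a synthase early in the pathway, stood at 209, 257, 242 and 271 CPM on HFD, against 111, 95.6, 122 and 127 CPM on Chow (1.07 ± 0.1, adjusted p = 2.5e-05).

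Triglyceride synthesis had 4 of 14 members higher and 4 lower, with 2 lower without HFD replicate 3 or Chow replicate 3 or 4 and 6 higher without Chow replicate 2. Lpin3, a phosphatidate phosphatase, averaged 14.7 ± 0.869 CPM on HFD and 7.59 ± 0.602 CPM on Chow (0.93 ± 0.09, adjusted p = 2.45e-05), whereas Agpat2, an acyltransferase of the same route, was not called (-0.34 ± 0.35, adjusted p = 0.53). In mitochondrial fatty acid oxidation, 3 of 16 genes were higher and 2 lower, and 7 were higher without Chow replicate 2 or with limma. Without any single library other than HFD replicate 2 and Chow replicate 1, 1 was lower. Acadm, the medium-chain acyl-CoA dehydrogenase, stood at 239, 272, 238 and 262 CPM on HFD, against 159, 173, 154 and 141 CPM on Chow (0.66 ± 0.07, adjusted p = 5.51e-05). Acaa2, the thiolase of the last step, differed by less (0.38 ± 0.08, adjusted p = 0.00335).

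**Figure D3:**
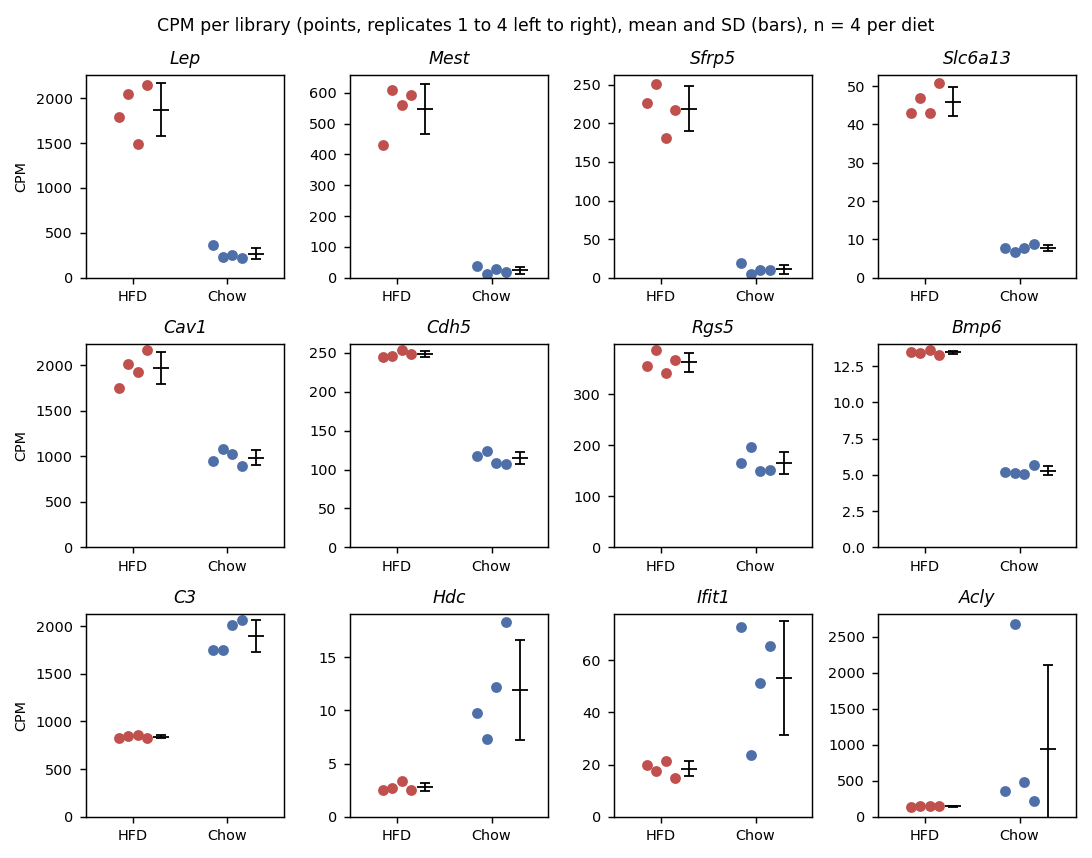
CPM of 12 genes in each of the 4 HFD libraries (red, left) and the 4 Chow libraries (blue, right), with the group mean and SD beside the points. The diets do not overlap for any of the 12 genes shown; for Acly, Chow replicate 2 at 2680 CPM sets the mean, and the lower arm of the SD bar is cut at 0.

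Amino acid handling held some of the most even single-gene differences. Slc6a13 (chromosome 6, 121300227 to 121337733, plus strand), a membrane carrier of GABA and taurine, stood at 43, 46.8, 43 and 50.8 CPM on HFD, against 7.77, 6.7, 7.76 and 8.79 CPM on Chow (2.53 ± 0.09, adjusted p = 5.66e-08). Abat, the mitochondrial transaminase that breaks down GABA, stood at 53.6, 59, 52.9 and 52.7 CPM on HFD, against 12.7, 6.34, 10.2 and 10.3 CPM on Chow (2.43 ± 0.16, adjusted p = 6.67e-06). The remaining 6 tested genes of that list held 1 more call, Csad, which was lower. Serine synthesis rose in part, with 5 of 14 genes of serine and one-carbon metabolism higher and 1 lower (0 lower without any single library other than HFD replicate 2 and Chow replicate 1). Its first enzyme, Phgdh, averaged 32.3 ± 2.96 CPM on HFD and 16 ± 3.66 CPM on Chow (0.99 ± 0.14, adjusted p = 0.000646). Psat1, the next, averaged 85.1 ± 4.4 CPM on HFD and 44.7 ± 6.46 CPM on Chow (0.9 ± 0.09, adjusted p = 2.3e-05). In the creatine and polyamine list 1 of 14 was higher, Gamt, the methyltransferase that completes creatine (12.9 ± 1.84 CPM on HFD, 6.98 ± 2.36 CPM on Chow, 0.86 ± 0.2, adjusted p = 0.0108). Of the 2 lower genes, Azin1, an activator of polyamine synthesis, differed by -0.23 ± 0.06 (adjusted p = 0.0115). In that list 1 gene was lower without HFD replicate 1 or 2 or Chow replicate 1 or 4, and 2 were higher without HFD replicate 4 or Chow replicate 4.

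Insulin signalling genes had 3 of 20 members higher and 5 lower. Grb14 (chromosome 2, 64912476 to 65024987, minus strand), an adaptor that inhibits the insulin receptor, stood at 33.1, 42, 40.6 and 40.1 CPM on HFD, against 11.1, 9.51, 10.8 and 6.67 CPM on Chow (2 ± 0.14, adjusted p = 4.28e-06). Insr, the receptor itself, stood at 203, 201, 204 and 200 CPM on HFD and 202, 235, 262 and 276 CPM on Chow. It overlapped in Chow replicate 1, and its call (-0.3 ± 0.09, adjusted p = 0.0241) was lost without any single HFD library and without Chow replicate 3 or 4. Between 2 and 3 list members were lower without HFD replicate 1, 2, 3 or 4, or Chow replicate 4.

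Transcription factors of the adipocyte were mostly lower where they differed. Of 19 tested, 7 were lower (Stat5a, Ppargc1b, Pparg, Tbx15, Cebpa, Cebpb and Stat5b) and 1 was higher. Pparg, the master regulator of fat cell formation, stood at 154, 180, 176 and 182 CPM on HFD, against 196, 245, 230 and 226 CPM on Chow (-0.4 ± 0.08, adjusted p = 0.00296). The higher gene was Zfp423, a zinc finger factor that marks committed preadipocytes and holds white fat identity, at 97.7, 111, 106 and 122 CPM on HFD, against 43.4, 39.7, 42.9 and 38.2 CPM on Chow (1.38 ± 0.08, adjusted p = 3.39e-07). Of 13 tested thermogenic genes, 1 was higher (Prdm16) and 3 were lower (Dio2, Pank1 and Cox8b), with 3 higher without Chow replicate 2 and 2 without Chow replicate 1. Prdm16, a factor of brown and beige fat identity, averaged 23.3 ± 3.52 CPM on HFD and 14 ± 1.53 CPM on Chow (0.7 ± 0.12, adjusted p = 0.000971). Ucp1, the uncoupling protein of brown fat, was too low to be tested, at 0 to 0.26 CPM on HFD and 0.192 to 1.63 CPM on Chow.

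The vessel wall was higher on HFD. Of 26 blood endothelial markers, 19 were higher and 1 was lower (Sele; 2 without Chow replicate 2), with a median of 0.6. Their summed level lay between 1976 and 2097 CPM on HFD and between 1218 and 1309 CPM on Chow. Cdh5 (chromosome 8, 104101625 to 104144502, plus strand), the cadherin of endothelial junctions, stood at 245, 246, 254 and 248 CPM on HFD, against 117, 124, 109 and 107 CPM on Chow (1.09 ± 0.06, adjusted p = 3.39e-07). Pecam1, another junction protein of endothelium, stood at 190, 193, 179 and 190 CPM on HFD, against 108, 101, 91 and 91.8 CPM on Chow (0.91 ± 0.07, adjusted p = 1.89e-06). Both genes had a spread among the 4 HFD libraries that was small beside the difference between diets. Aplnr, the apelin receptor of growing vessels, stood at 36.7, 39.1, 51.4 and 41 CPM on HFD, against 16.5, 18.7, 14.5 and 11.5 CPM on Chow (1.43 ± 0.15, adjusted p = 0.000121). In its list of 17 lymphatic markers and vascular growth factors, 5 were higher and 3 lower, and the lower ones included Vegfa; 5 were lower without Chow replicate 2 and 1 with all 24 libraries in 1 fit. Prox1, the factor that fixes lymphatic identity, averaged 1.99 ± 0.718 CPM on HFD and 2.18 ± 0.34 CPM on Chow and was not called (adjusted p = 0.713).

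Mural cells moved with the endothelium. Of 12 tested pericyte and smooth muscle markers, 8 were higher and 0 lower, with a median of 0.43; without HFD replicate 4, 5 were higher. Rgs5 (chromosome 1, 169655501 to 169695813, plus strand), a regulator of G protein signalling that marks pericytes, stood at 355, 386, 342 and 367 CPM on HFD, against 165, 196, 149 and 152 CPM on Chow (1.1 ± 0.09, adjusted p = 4.05e-06). Acta2, smooth muscle actin, which is also made by basal mammary epithelium, stood at 292, 276, 264 and 316 CPM on HFD, against 177, 187, 174 and 167 CPM on Chow (0.67 ± 0.07, adjusted p = 2.67e-05). Mcam, an adhesion protein of pericytes and vessels, averaged 315 ± 19.1 CPM on HFD and 204 ± 18.8 CPM on Chow (0.6 ± 0.08, adjusted p = 0.000161). Des, which skeletal muscle makes too, was in the list and was not called.

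Some collagen genes were higher, while Col1a1 was not called. Of 22 collagen genes, 7 were higher (Col18a1, Col4a2, Col12a1, Col6a1, Col4a1, Col6a2 and Col15a1) and 1 was lower. The lower one was Col4a3. Without Chow replicate 2, 4 were lower, without any other single library 0 to 2, and with limma 3. Col1a1, the fibrillar collagen of scar and dermis, stood at 1010, 923, 1020 and 1080 CPM on HFD and 1030, 824, 1160 and 1050 CPM on Chow and was not called (-0.04 ± 0.1, adjusted p = 0.804). Col18a1, a basement membrane collagen, stood at 190, 231, 209 and 234 CPM on HFD, against 134, 122, 111 and 110 CPM on Chow (0.83 ± 0.08, adjusted p = 2.59e-05). Sparc, a collagen-binding matricellular protein, stood at 3390, 3470, 3420 and 3530 CPM on HFD, against 1490, 1320, 1600 and 1490 CPM on Chow (1.2 ± 0.07, adjusted p = 8.52e-07). Bgn, the proteoglycan biglycan, stood at 361, 364, 351 and 404 CPM on HFD, against 148, 122, 139 and 124 CPM on Chow (1.44 ± 0.08, adjusted p = 3.02e-07). Of the 28 matricellular genes, 7 were higher and 6 lower, with 10 lower without Chow replicate 2 and 2 or 3 lower without HFD replicate 2, 3 or 4 or Chow replicate 1, 3 or 4.

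Matrix proteases and their inhibitors had calls both ways. Of 17 tested, 4 were higher and 7 lower. The lower ones were Mmp9, Mmp14, Adamts4, Mmp2, Mmp3, Timp2 and Mmp19, and the higher ones Timp4, Adamts5, Timp3 and Mmp11. Mmp9 (chromosome 2, 164940780 to 164955850, plus strand), a gelatinase of neutrophils and other myeloid cells, stood at 7.11, 6.89, 7.22 and 6.03 CPM on HFD, against 28.5, 23.8, 27.5 and 31.4 CPM on Chow (-2.06 ± 0.1, adjusted p = 2.28e-07). Mmp2, a gelatinase of fibroblasts, differed by less (-0.3 ± 0.06, adjusted p = 0.00473). Timp4, an inhibitor of these enzymes that fat expresses strongly, stood at 105, 110, 76.1 and 99.6 CPM on HFD, against 22.4, 22.1, 18 and 18.7 CPM on Chow (2.24 ± 0.12, adjusted p = 1.12e-06).

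Among 19 progenitor and fibroblast markers, 5 were higher and 5 lower. Without HFD replicate 3, 2 were higher, without HFD replicate 4, 3, and with all 24 libraries in 1 fit, 2; without Chow replicate 2, 7 were lower. Pdgfra, the receptor that marks adipose progenitors, stood at 253, 174, 194 and 191 CPM on HFD and 275, 225, 299 and 307 CPM on Chow. The groups overlapped (-0.48 ± 0.13, adjusted p = 0.0237), and the call was lost without HFD replicate 2, 3 or 4 and without Chow replicate 1, 3 or 4. Fmo2, a flavin monooxygenase, stood at 110, 120, 99.2 and 135 CPM on HFD, against 35.7, 29.1, 35.7 and 31 CPM on Chow (1.79 ± 0.1, adjusted p = 8.52e-07).

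Of 17 TGF-beta family ligands and antagonists, 4 were higher (Bmp6, Bmp3, Fstl3 and Bmp4) and 3 were lower (Fst, Bmp7 and Tgfb2). Bmp6 (chromosome 13, 38345716 to 38499728, plus strand), a bone morphogenetic protein that endothelium makes, stood at 13.5, 13.4, 13.6 and 13.3 CPM on HFD, against 5.22, 5.14, 5.09 and 5.71 CPM on Chow (1.32 ± 0.09, adjusted p = 1.39e-06). Bmp4, which drives commitment of progenitors to fat, averaged 5.53 ± 0.774 CPM on HFD and 2.89 ± 0.352 CPM on Chow (0.91 ± 0.15, adjusted p = 0.00115). Fst, the secreted antagonist follistatin, stood at 12.1, 9.16, 11 and 8.42 CPM on HFD, against 22.3, 26.4, 23.3 and 25.5 CPM on Chow (-1.29 ± 0.11, adjusted p = 9.25e-06). In the IGF list, 3 of 12 were higher and 0 lower, with 2 lower without Chow replicate 2 or with limma and 1 without Chow replicate 4. Igfbp3, a binding protein that carries IGF1, stood at 70, 78.9, 66.7 and 65.4 CPM on HFD, against 22.2, 24.4, 23 and 24.4 CPM on Chow (1.55 ± 0.07, adjusted p = 1.26e-07), whereas Igf1 itself was not called (-0.24 ± 0.19, adjusted p = 0.404).

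The lists of macrophage genes differed in their calls. Of 18 genes of lipid-associated macrophages, the lipid-loaded cells of obese fat, 9 were higher, 8 were not called and 1, Cd63, was lower (2 lower without Chow replicate 3). Mmp12 (chromosome 9, 7344381 to 7369499, plus strand), macrophage elastase, stood at 12, 24.1, 15.8 and 22 CPM on HFD, against 1.37, 1.55, 1.04 and 1.15 CPM on Chow (3.82 ± 0.27, adjusted p = 8.06e-06). Trem2, the lipid receptor that defines the state, was low, at 3.58, 6.04, 3.36 and 4.24 CPM on HFD, against 3.23, 1.27, 2.67 and 2.24 CPM on Chow. It passed narrowly (0.83 ± 0.27, adjusted p = 0.0428), and the call was lost without HFD replicate 1, 2 or 4 and without Chow replicate 3 or 4. Several genes of this list, Plin2 and Lipa among them, are made by adipocytes too. Pan-macrophage genes did not rise with them: 0 of 17 were higher (1 without Chow replicate 3) and 3 lower (Aif1, Fcgr1 and Fcgr4), with 0 to 2 lower without any single library other than Chow replicate 2.

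Adgre1, the F4/80 antigen of mouse macrophages, stood at 52.1, 52.1, 52.2 and 58.6 CPM on HFD and 63.9, 44, 60.4 and 55.2 CPM on Chow (-0.09 ± 0.1, adjusted p = 0.588, not called). Aif1, an actin-binding protein of macrophages, stood at 2.99, 3.25, 3.61 and 4 CPM on HFD and 7.58, 3.31, 7.04 and 8.15 CPM on Chow (-0.95 ± 0.25, adjusted p = 0.0173), a call lost without HFD replicate 1 or 2 or Chow replicate 4. In both, Chow replicate 2 was the lowest of its group. The list of resident macrophage genes, not all of which encode receptors, had 2 of 15 higher (Marco and Retnla) and 6 lower. Mrc1, the mannose receptor, stood at 249, 185, 211 and 221 CPM on HFD and 351, 207, 329 and 315 CPM on Chow, and was not called (-0.5 ± 0.16, adjusted p = 0.0535), though it was with DESeq2 (adjusted p = 0.00797), limma (0.009), upper-quartile factors (0.0419) and a minimum of 1 CPM (0.0499). Marco, a scavenger receptor, was low but higher, at 0.717, 2.08, 1.06 and 1.31 CPM on HFD, against 0.124, 0.282, 0.196 and 0.128 CPM on Chow (2.75 ± 0.45, adjusted p = 0.000923). Without Chow replicate 2, Mrc1 was called (-0.65, adjusted p = 7.88e-05), 14 pan-macrophage and 12 resident macrophage genes were lower, and 5 rather than 1 of the CC chemokine genes were. The number of lower resident genes was 3 without HFD replicate 1, 2 or 3 or Chow replicate 1, 3 or 4. With DESeq2 6 pan-macrophage genes were lower, with all 24 libraries in 1 fit 5 and with limma 9, and without a filter on low counts 1, beside 3 resident ones.

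Of 14 inflammatory cytokine and prostaglandin genes, 4 were higher (Saa3, Hp, Ptgs1 and Tnf) and 2 were lower (Il18 and Csf1). Saa3, an acute phase protein that mouse fat makes in obesity, stood at 2.93, 5.91, 6.6 and 7.34 CPM on HFD, against 0.311, 0.0705, 0.0652 and 0.128 CPM on Chow (5.17 ± 0.45, adjusted p = 1.42e-05). Tnf, the cytokine, stood at 1.79, 1.3, 1.43 and 1.07 CPM on HFD, against 0.808, 0.775, 0.587 and 1.03 CPM on Chow. It passed by the smallest margin of those described (0.77 ± 0.26, adjusted p = 0.049), and the call was lost under DESeq2 and without any single library other than HFD replicate 4 and Chow replicate 4.

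Most mast cell genes tested were lower. Of 10 tested, 6 were lower (Hdc, Mcpt4, Cma1, Mrgprb1, Tpsb2 and Cpa3) and 0 higher, and their summed level lay between 167.1 and 214 CPM on HFD and between 227 and 301.7 CPM on Chow. Cpa3, the carboxypeptidase of mast cell granules, stood at 23.9, 20.4, 28 and 26.8 CPM on HFD, against 30.9, 33.9, 38.5 and 43.3 CPM on Chow (-0.59 ± 0.12, adjusted p = 0.00546). Hdc (chromosome 2, 126593667 to 126619299, minus strand), the enzyme that makes histamine, which basophils and other myeloid cells also express, differed by more, at 2.51, 2.73, 3.36 and 2.51 CPM on HFD, against 9.76, 7.33, 12.2 and 18.3 CPM on Chow (-2.13 ± 0.28, adjusted p = 0.000606).

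Interferon-stimulated genes were lower on HFD, with more lower calls than any other of the 64 lists. Of 30 tested, 24 were lower and 0 higher, with a median of -1.08 and every member below 0 (-2.99 to -0.2). Type I interferons act through a transcription factor complex that binds repeats of GAAA in front of its target genes. Irf7 (chromosome 7, 141262706 to 141266481, minus strand), the transcription factor that amplifies the response, stood at 24.6, 25.8, 26.8 and 26.2 CPM on HFD, against 82.7, 34.7, 76.9 and 77.7 CPM on Chow (-1.43 ± 0.27, adjusted p = 0.00817). Ifit1, which binds foreign RNA caps, stood at 19.9, 17.6, 21.4 and 14.7 CPM on HFD, against 72.6, 23.5, 51.4 and 65.4 CPM on Chow (-1.57 ± 0.35, adjusted p = 0.0192). Mx2, an antiviral GTPase, stood at 3.4, 2.86, 3.92 and 2.69 CPM on HFD, against 8.39, 4.86, 7.63 and 6.61 CPM on Chow (-1.13 ± 0.19, adjusted p = 0.000995). In all 3 genes Chow replicate 2 was lowest of its group and still above every HFD library. The list's mean log2 level lay between 3.969 and 4.287 on HFD, and on Chow at 4.43 in replicate 2 and between 5.33 and 5.487 in the others. Without Chow replicate 2, 29 members were lower, and without any other single library 18 to 20 were. With DESeq2 or limma 28 were lower, without a filter on low counts 19, and with the replicate number as a block 17. The call of Ifit1 was lost without HFD replicate 2 or 4. Interferon-gamma GTPases had 3 of 12 members lower and 0 higher; without HFD replicate 2, 5 were lower, and without HFD replicate 1 or with DESeq2, 1 was higher. Iigp1, the lower one named by rule, averaged 78.8 ± 24.2 CPM on HFD and 151 ± 11.8 CPM on Chow (-0.97 ± 0.19, adjusted p = 0.00868), and Gbp2 was not called (0.36 ± 0.13, adjusted p = 0.0688), though it was without HFD replicate 1 (adjusted p = 0.0277) and with DESeq2 (0.0358).

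The promoter windows of this list are shown because its members moved together. RefSeq windows (GRCm38.p6, 250 bases before to 50 after the gene start, 300 in all) were at hand for 20 of the 30 genes. The motif of GAAA, any 2 bases and GAAA again, searched on both strands, was present in 13 of the 20 (65%) and in 11 of the 16 lower genes that had a window, against 440 of 11226 tested genes with a window (3.92%). The 3 lower genes with the lowest adjusted p among those with a match follow, 5′ to 3′ on the gene's strand, with matches in capitals; matches may overlap, as both do in Bst2.
Ifih1 (chr2:62646206-62646505, minus strand): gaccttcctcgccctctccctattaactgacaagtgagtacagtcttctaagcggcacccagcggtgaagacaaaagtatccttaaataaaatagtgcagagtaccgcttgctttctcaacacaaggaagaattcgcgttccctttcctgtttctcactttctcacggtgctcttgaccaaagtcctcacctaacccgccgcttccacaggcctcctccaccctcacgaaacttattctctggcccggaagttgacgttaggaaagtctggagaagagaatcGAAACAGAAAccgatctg
Ddx60 (chr8:61927837-61928136, plus strand): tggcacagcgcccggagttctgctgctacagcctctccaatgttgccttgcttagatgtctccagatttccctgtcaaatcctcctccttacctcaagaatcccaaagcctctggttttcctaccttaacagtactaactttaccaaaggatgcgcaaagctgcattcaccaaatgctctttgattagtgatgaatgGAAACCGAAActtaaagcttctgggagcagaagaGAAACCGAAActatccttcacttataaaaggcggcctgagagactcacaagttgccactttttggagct
Bst2 (chr8:71537423-71537722, minus strand): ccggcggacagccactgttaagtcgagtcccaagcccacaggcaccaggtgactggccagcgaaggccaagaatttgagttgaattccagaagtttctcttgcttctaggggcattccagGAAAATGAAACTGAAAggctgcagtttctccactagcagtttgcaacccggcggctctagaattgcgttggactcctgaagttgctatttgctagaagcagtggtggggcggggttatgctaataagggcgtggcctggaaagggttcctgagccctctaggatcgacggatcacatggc
Ifih1, the RNA sensor MDA5, stood at 69.8, 70.6, 69.9 and 60.7 CPM on HFD, against 106, 78.7, 96.5 and 113 CPM on Chow (-0.57 ± 0.1, adjusted p = 0.00218). Ddx60, a helicase of the antiviral response, averaged 24 ± 3.51 CPM on HFD and 47.6 ± 11.3 CPM on Chow (-1.02 ± 0.19, adjusted p = 0.00576). Bst2, the tetherin that holds budding virus, averaged 16.2 ± 1.99 CPM on HFD and 26.8 ± 6.15 CPM on Chow (-0.76 ± 0.16, adjusted p = 0.00866), with Chow replicate 2, at 18.5 CPM, inside the range of the HFD libraries. A match describes letters in the window and does not show that a factor was bound. The list was chosen as genes that interferon induces, so its share against all genes does not bear on the diet difference.

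Some proliferation genes were higher. Of 26 genes of DNA replication and mitosis, 8 were higher (Cdk1, Cenpf, Ube2c, Ccnb2, Rrm2, Ccna2, Mki67 and Birc5) and 0 lower, with a median of 0.38. Between 3 and 4 were higher without HFD replicate 2, 3 or 4 or Chow replicate 4, and 1 with all 24 libraries in 1 fit; 1 was lower without HFD replicate 2 or Chow replicate 2. Cdk1 (chromosome 10, 69336635 to 69352938, minus strand), the kinase that starts mitosis, stood at 2.45, 4.09, 3.42 and 3.58 CPM on HFD, against 0.994, 1.48, 0.913 and 0.962 CPM on Chow (1.61 ± 0.23, adjusted p = 0.000354). Mki67, the proliferation antigen Ki-67, stood at 31.2, 54.9, 39.7 and 45 CPM on HFD and 32.9, 20.8, 22.7 and 21.1 CPM on Chow, with Chow replicate 1 above HFD replicate 1. Its call (0.78 ± 0.21, adjusted p = 0.0291) was lost without Chow replicate 2, 3 or 4 and without HFD replicate 2, 3 or 4. Genes of mitosis carry a short element, the cell cycle genes homology region, near their start, and its letters TTTGAA were searched in the same windows. They were present on either strand in 11 of 23 list genes with a window (47.8%) and 5 of the 7 higher ones, against 1649 of 11226 tested genes (14.7%). This list too was chosen by role, so its share does not bear on the diet difference. The 3 higher genes with the lowest adjusted p that had a match follow, with matches in capitals, written TTCAAA where the match was on the other strand.
Cdk1 (chr10:69352863-69353162, minus strand): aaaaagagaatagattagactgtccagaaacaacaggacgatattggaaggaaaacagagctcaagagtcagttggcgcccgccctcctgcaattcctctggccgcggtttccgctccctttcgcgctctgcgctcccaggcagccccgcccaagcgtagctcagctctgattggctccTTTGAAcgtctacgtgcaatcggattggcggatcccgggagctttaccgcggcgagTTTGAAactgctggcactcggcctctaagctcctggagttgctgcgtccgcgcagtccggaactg
Cenpf (chr1:189688037-189688336, minus strand): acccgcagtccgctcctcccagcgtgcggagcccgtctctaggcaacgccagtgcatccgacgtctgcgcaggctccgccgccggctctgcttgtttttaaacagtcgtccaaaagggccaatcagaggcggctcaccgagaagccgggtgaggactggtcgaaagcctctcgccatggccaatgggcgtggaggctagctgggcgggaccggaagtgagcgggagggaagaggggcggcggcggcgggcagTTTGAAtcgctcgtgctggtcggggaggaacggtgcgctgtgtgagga
Ube2c (chr2:164769679-164769978, plus strand): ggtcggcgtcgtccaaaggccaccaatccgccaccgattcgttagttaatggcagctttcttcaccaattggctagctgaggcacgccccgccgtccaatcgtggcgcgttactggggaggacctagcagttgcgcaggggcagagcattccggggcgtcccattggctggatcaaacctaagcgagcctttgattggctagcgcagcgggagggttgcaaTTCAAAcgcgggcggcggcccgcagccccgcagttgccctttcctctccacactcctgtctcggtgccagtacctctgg
Cenpf, a kinetochore protein, averaged 7.67 ± 1.37 CPM on HFD and 3.41 ± 0.772 CPM on Chow (1.14 ± 0.18, adjusted p = 0.000823). Ube2c, the ubiquitin-conjugating enzyme of mitotic exit, averaged 2.86 ± 0.555 CPM on HFD and 1.21 ± 0.415 CPM on Chow (1.2 ± 0.26, adjusted p = 0.00522).

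Several mammary epithelial genes were lower. Of 16 luminal and basal genes, 6 were lower (Krt18, Krt7, Krt19, Cdh1, Epcam and Cldn7) and 1 was higher, Acta2, which vessels share. Their summed level, with Acta2 included, lay between 1032 and 1131 CPM on HFD, and on Chow at 1812, 1165, 1091 and 1174 CPM. Chow replicate 1 alone set the top of that range. Krt19, a luminal keratin, stood at 122, 149, 123 and 144 CPM on HFD, against 364, 211, 183 and 213 CPM on Chow, with replicate 1 highest (-0.88 ± 0.22, adjusted p = 0.0225). Epcam, an epithelial adhesion protein, averaged 52.9 ± 6.42 CPM on HFD and 70.8 ± 12.8 CPM on Chow (-0.45 ± 0.13, adjusted p = 0.0298). The call of Krt19 was lost without HFD replicate 1 or 3 and that of Epcam without HFD replicate 1, 2 or 4 or Chow replicate 2 or 4, and 3 list members were lower without HFD replicate 1 or 3. With all 24 libraries in 1 fit, 1 was, and without a filter on low counts 2 were.

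Some hormone receptors of the gland were lower as well. Of 11 tested genes of steroid and mammary hormone action, 3 were lower (Prlr and Pgr among them) and 0 higher. Prlr (chromosome 15, 10177238 to 10349180, plus strand), the prolactin receptor, which adipocytes and luminal cells both express, stood at 367, 517, 455 and 468 CPM on HFD, against 804, 788, 616 and 664 CPM on Chow (-0.7 ± 0.11, adjusted p = 0.00117). Esr1, the estrogen receptor, was not called (-0.24 ± 0.17, adjusted p = 0.357). Csn3, the milk protein kappa-casein, stood at 38.5, 36.1, 31.7 and 25.9 CPM on HFD, against 64, 49.8, 55.5 and 61 CPM on Chow (-0.83 ± 0.12, adjusted p = 0.000749), and was the 1 call among 5 tested milk genes, where 2 were lower without HFD replicate 1, with DESeq2 or with limma, and 1 was higher without HFD replicate 4. Aqp5, a water channel of glandular epithelium, stood at 17.3, 19.5, 23.5 and 22.3 CPM on HFD, against 75.6, 73.4, 63.4 and 65 CPM on Chow (-1.78 ± 0.1, adjusted p = 3.77e-07). The part of a different share of epithelium in these differences was not tested.

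Transcripts of the mitochondrial genome were lower on HFD. Of the 13 protein-coding ones in the table, 7 passed the filter on low counts, and these 7 were called lower, between -0.57 and -0.26; 4 were with all 24 libraries in 1 fit. mt-Co1, a subunit of complex IV, stood at 7400, 8450, 8460 and 8060 CPM on HFD, against 11000, 14000, 11100 and 10900 CPM on Chow (-0.57 ± 0.1, adjusted p = 0.00125). mt-Nd4, of complex I, averaged 1230 ± 151 CPM on HFD and 1700 ± 127 CPM on Chow (-0.5 ± 0.1, adjusted p = 0.00257). These move with the mitochondrial ribosomal RNA share given above, which was also lower on HFD. Of 31 nuclear-encoded subunits of the respiratory chain, 6 were lower and 0 higher. Ndufa1, a small subunit of complex I, averaged 23.2 ± 1.69 CPM on HFD and 29.4 ± 0.573 CPM on Chow (-0.37 ± 0.07, adjusted p = 0.00214), and Ndufb8 was not called (-0.22 ± 0.11, adjusted p = 0.175).

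Stress and hormone responses were split. Of 22 genes of endoplasmic reticulum stress, 7 were lower and 2 higher (1 without HFD replicate 3 or Chow replicate 3). Xbp1, the transcription factor of secretory cells, stood at 132, 106, 112 and 115 CPM on HFD, against 201, 182, 186 and 239 CPM on Chow (-0.83 ± 0.09, adjusted p = 7.97e-05), whereas the chaperone Hspa5 was not called (-0.08 ± 0.1, adjusted p = 0.595). Glucocorticoid response genes had 4 of 12 higher and 2 lower, with 4 lower without HFD replicate 4 and 1 without HFD replicate 2 or 3 or Chow replicate 4. Pik3ip1, an inhibitor of PI3 kinase, averaged 17.8 ± 1.74 CPM on HFD and 10.4 ± 1.24 CPM on Chow (0.74 ± 0.1, adjusted p = 0.00034). Fkbp5, a chaperone that glucocorticoids induce, stood at 106, 83, 49.6 and 84.5 CPM on HFD, against 27.5, 16.4, 37.1 and 43.2 CPM on Chow. Its call (1.35 ± 0.35, adjusted p = 0.0334) was lost without HFD replicate 1, 2 or 4, without Chow replicate 1 or 3 and with limma.

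Clock genes ran in opposite directions within their loop. Of 19 tested, 7 were higher (Per2, Per3, Cry2, Tef, Rora, Hlf and Cry1) and 6 were lower (Nfil3, Npas2, Bhlhe40, Bhlhe41, Arntl and Per1). Arntl, whose product BMAL1 drives the loop, stood at 6.33, 5.85, 3.98 and 3.94 CPM on HFD, against 10.6, 6.41, 9.91 and 8.79 CPM on Chow (-0.86 ± 0.19, adjusted p = 0.00787). Nfil3, a repressor of clock output, stood at 3.64, 3.44, 3.36 and 3.94 CPM on HFD, against 7.89, 8.74, 9.06 and 7.57 CPM on Chow (-1.23 ± 0.12, adjusted p = 1.72e-05). The hour at which each sample was taken is not given in the labels used here, and its part was not tested.

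Myelin genes of peripheral nerve had 2 of 10 members higher, S100b among them, and 1 lower (0 without any single library other than Chow replicate 2). S100b, which adipocytes make besides Schwann cells, averaged 8.26 ± 1.23 CPM on HFD and 3.78 ± 1.36 CPM on Chow (1.09 ± 0.24, adjusted p = 0.00698). Neat1, the long noncoding RNA of paraspeckles, stood at 600, 538, 554 and 489 CPM on HFD, against 451, 413, 413 and 368 CPM on Chow (0.38 ± 0.08, adjusted p = 0.00466).

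Further genes were named for a low adjusted p, a change of at least 2-fold and no overlap between diets, whatever list they belong to. Rnase2a (chromosome 14, 51255266 to 51256112, minus strand), an eosinophil-associated ribonuclease of the mouse, was counted 146, 142, 189 and 198 times on HFD, against 0, 1, 0 and 0 times on Chow. The summed counts of 675 and 1 give a ratio of 636 after scaling (95% exact interval 114 to 25200, counting error only; adjusted p = 1.07e-07). This family has near-identical copies, so reads may be split between them; Ear2, another member, averaged 18.4 ± 2.59 CPM on HFD and 11.9 ± 3.39 CPM on Chow and was not called (0.6 ± 0.2, adjusted p = 0.0627), though it was without Chow replicate 1 (adjusted p = 0.043) or 2 (0.0143), with DESeq2 (0.0165) and with limma (0.0358). Rap1gap2, which switches off the small GTPase Rap1, stood at 71.1, 70.2, 69.8 and 76.2 CPM on HFD, against 23.6, 20.3, 20.5 and 20.1 CPM on Chow (1.73 ± 0.07, adjusted p = 5.66e-08). Nedd9, an adhesion scaffold, stood at 188, 224, 201 and 183 CPM on HFD, against 51.9, 44, 46.9 and 51.7 CPM on Chow (2 ± 0.08, adjusted p = 6.15e-08). Other proteins of adhesion and the cell cortex stood beside it. Tns1, a focal adhesion protein, averaged 1900 ± 76.8 CPM on HFD and 777 ± 40.6 CPM on Chow (1.26 ± 0.07, adjusted p = 3.02e-07). Tln2, a talin that links integrins to actin, averaged 289 ± 13.9 CPM on HFD and 119 ± 4.31 CPM on Chow (1.25 ± 0.06, adjusted p = 1.3e-07). Hmcn2, a hemicentin of the matrix, averaged 69.1 ± 8.78 CPM on HFD and 14.3 ± 1.39 CPM on Chow (2.24 ± 0.1, adjusted p = 1.24e-07).

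Syp, synaptophysin of secretory vesicles, stood at 20.5, 24.6, 20.2 and 23.5 CPM on HFD, against 3.48, 3.45, 4.69 and 3.85 CPM on Chow (2.49 ± 0.12, adjusted p = 1.48e-07). Sod3, the extracellular superoxide dismutase, averaged 328 ± 15 CPM on HFD and 117 ± 11.6 CPM on Chow (1.46 ± 0.08, adjusted p = 2.79e-07). Palmd, a palmdelphin, differed by 1.34 ± 0.06 and Ric3, a chaperone of acetylcholine receptors, by 1.53 ± 0.07. Among the lower genes, Slc5a6, the carrier of biotin and pantothenate, stood at 15.2, 12.9, 18.1 and 18 CPM on HFD, against 60.7, 49.5, 46 and 54.1 CPM on Chow (-1.74 ± 0.12, adjusted p = 2.95e-06). Dusp4, a phosphatase that inactivates MAP kinases, averaged 22.1 ± 2.37 CPM on HFD and 57 ± 5.84 CPM on Chow (-1.4 ± 0.09, adjusted p = 1.24e-06). Kif5c, a kinesin motor, differed by -1.46 ± 0.12, Pde3a, a phosphodiesterase that degrades cyclic AMP, by -1.17 ± 0.1, Rgs2, a regulator of G protein signalling, by -1.03 ± 0.09, Sgms2, a sphingomyelin synthase, by -1.01 ± 0.07, and Haus7, an augmin subunit, by -1.01 ± 0.09. None of these genes overlapped between the diets.

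**Figure D4:**
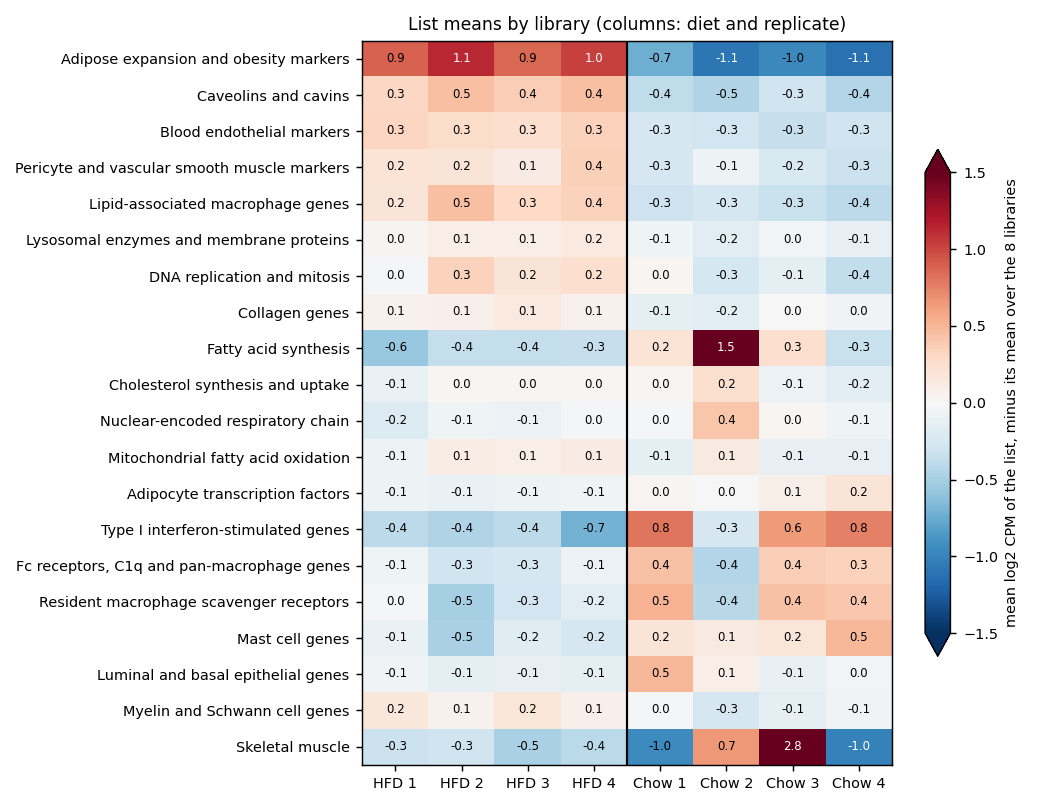
Mean log2 CPM of the members of 20 lists in each of the 8 libraries (columns, HFD replicates 1 to 4 left, Chow replicates 1 to 4 right), each row shown as its difference from the row's mean over the 8 libraries; colours stop at 1.5 either way, and the number in a cell is the difference. Chow replicate 2 stands apart from the other Chow libraries in the rows of fatty acid synthesis, interferon-stimulated genes and both macrophage lists, and Chow replicate 3 in that of skeletal muscle.

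The remaining lists gave the following counts. Lysosomal genes had 10 of 24 members higher and 0 lower, with 4 to 6 higher without HFD replicate 2, 3 or 4 or Chow replicate 4 and 2 lower without Chow replicate 2. Antioxidant genes had 4 of 21 higher and 3 lower, and 7 higher and 5 lower without Chow replicate 2. Glycolysis had 3 of 21 higher and 1 lower, with 6 higher without that library and 0 lower without Chow replicate 1 or 3 or any single HFD library. Branched-chain amino acid catabolism had 2 of 23 higher and 2 lower, with 0 or 1 lower without any single library other than Chow replicate 1. CC chemokine genes had 2 of 13 higher and 1 lower, with 5 lower without Chow replicate 2. CXC chemokines had 2 of 12 higher and 3 lower, with 6 lower without Chow replicate 2, 5 with limma, and 1 higher without HFD replicate 2 or 3 or Chow replicate 3 or 4. MHC class I genes had 3 of 16 higher and 4 lower, with 1 higher without HFD replicate 2, 3 or 4 and 2 lower without HFD replicate 3 or 4 or Chow replicate 1, 3 or 4. Class II genes had 2 of 9 higher and 0 lower, with 1 higher without Chow replicate 3 or any single HFD library. Innate receptors had 1 of 17 higher and 3 lower, with 7 lower without Chow replicate 2 and 0 to 2 without any other single library, and immediate early genes 1 of 18 higher and 3 lower, with 5 lower without it and 3 higher without Chow replicate 1. T and NK cell markers had 1 of 12 higher (Il7r) and 1 lower (Gata3), and the T cell gene Cd3e was not called. In that list 0 were higher without HFD replicate 2 or 4 or Chow replicate 1, and 2 were lower without HFD replicate 2. Checkpoint genes had 1 of 10 higher and 0 lower, with 2 higher without HFD replicate 1 or Chow replicate 4 and 1 lower without Chow replicate 2. Neutrophil genes had 1 of 5 higher and 3 lower, with 0 higher without any single library other than HFD replicate 1 and Chow replicate 1, and 1 lower without HFD replicate 2 or 4 or Chow replicate 1. Of 7 tested B cell markers, Ighm alone was called, and it was higher; 1 gene was lower without Chow replicate 4. The single calls of the muscle list (Mb) and the mesothelial list (Krt19) were lower, nuclear noncoding RNAs had 1 of 5 higher and 1 lower, the lymph node list had 1 of 2 each way, and red blood cell genes had 0 of 5. The muscle call was lost without Chow replicate 3 or any single HFD library, the mesothelial one without HFD replicate 1 or 3, the higher lymph node one without HFD replicate 2, 3 or 4 or Chow replicate 3 or 4, and the lower noncoding one without HFD replicate 3 or 4 or Chow replicate 3. Without Chow replicate 3, 2 muscle genes were higher, without Chow replicate 2 or 4, 2 noncoding RNAs were lower, and without HFD replicate 1, 1 red blood cell gene was higher.

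The diet difference was then set beside that of tumor-bearing mice, in libraries that share none with the 8 above. Of the 2160 genes higher in tumor-free fat, 1870 (86.6%) had the same sign in contralateral fat, where their median was 0.52 against 0.52 in tumor-free fat, and 1649 (76.3%) in peritumoral fat, where it was 0.31. Of the 1783 lower genes, 1466 (82.2%) had the same sign in contralateral fat, with a median of -0.34 against -0.47, and 1146 (64.3%) in peritumoral fat, with a median of -0.22. These genes were selected by their calls in tumor-free fat, which by itself tends to make their medians larger there. The same-sign share over all genes was not computed, so these percentages have no background beside them. Whether a diet difference itself differed was tested as an interaction, taken as the difference in tumor-bearing mice minus that in tumor-free fat. It was called for 3314 of 16676 genes (19.9%) with contralateral fat and for 3456 of 16744 (20.6%) with peritumoral fat. By direction, 1657 were positive and 1657 negative with contralateral fat, and 1632 positive and 1824 negative with peritumoral fat. These are the background for the counts by direction below. Both tests use the same 8 tumor-free libraries and so are not independent of each other. Many genes named below were chosen for their difference in those 8 libraries, which by itself favours a larger difference there.

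Vessel genes were among those whose diet difference was larger without a tumor. Of the 26 endothelial markers, the interaction was negative and called for 11 with contralateral and 15 with peritumoral fat, and positive for 1 each. Cdh5 differed by 1.09 in tumor-free, 0.45 in contralateral and 0.24 in peritumoral fat (interactions -0.64 ± 0.21, adjusted p = 0.0437, and -0.85 ± 0.17, adjusted p = 0.00437). On HFD its level was 195 ± 59.9 CPM in contralateral and 168 ± 35 CPM in peritumoral fat, and on Chow 140 ± 11.1 and 135 ± 15 CPM. Of the 12 pericyte markers, the interaction was negative for 6 and 7. Rgs5 differed by 0.52 in contralateral and -0.16 in peritumoral fat (interactions -0.58 ± 0.15, adjusted p = 0.0138, and -1.26 ± 0.15, adjusted p = 0.000846). Bmp6, so even in tumor-free fat, differed by 0 in contralateral and -0.15 in peritumoral fat (interactions -1.31 ± 0.19, adjusted p = 0.000476, and -1.47 ± 0.27, adjusted p = 0.00278). Fmo2 kept 0.92 and 0.21 of its 1.79 (interactions -0.87 and -1.58).

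Most interferon-stimulated genes with peritumoral fat, and most pan-macrophage genes with both, had an interaction of the other sign. The interaction was positive and called for 27 of 30 interferon-stimulated genes with peritumoral fat and for 5 with contralateral fat, negative for 0 with either. Ifit1 differed by -1.57 in tumor-free, -0.68 in contralateral and 0.47 in peritumoral fat (peritumoral interaction 2.04 ± 0.37, adjusted p = 0.00292). Of the 17 pan-macrophage genes, 10 had a positive interaction with contralateral and 13 with peritumoral fat. Adgre1 differed by -0.09, 0.58 and 0.87 in the same order of positions (interactions 0.66 ± 0.14, adjusted p = 0.00444, and 0.95 ± 0.23, adjusted p = 0.011). Hdc differed by -2.13, -0.63 and 0.33 (interactions 1.5 ± 0.31, adjusted p = 0.00494, and 2.46 ± 0.33, adjusted p = 0.000898). Mmp9 was lower on HFD at all 3 positions, by more without a tumor (-2.06, -0.65 and -0.74; interactions 1.4 ± 0.18 and 1.32 ± 0.22).

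Neat1 had opposite signs in tumor-free and in tumor-bearing mice. A called negative interaction was shared by 5 of the 5 nuclear noncoding RNAs tested, with contralateral and with peritumoral fat (medians -0.73 and -0.96). Neat1 had 0.38 in tumor-free fat, -1.15 ± 0.11 in contralateral and -1.14 ± 0.14 in peritumoral fat (interactions -1.53 ± 0.16, adjusted p = 4.95e-05, and -1.51 ± 0.2, adjusted p = 0.000846). The myelin list had a negative interaction for 7 of 12 genes tested with contralateral fat and 7 of 11 with peritumoral fat.

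Of the 12 expansion markers, the interaction was called for 2 with contralateral and 1 with peritumoral fat, all positive; Lep differed by 3.19 and 2.51 there (adjusted p = 0.392 and 0.505 for the interactions), though a missed threshold does not show that the differences were alike. Of the 20 fatty acid synthesis genes, 2 had a positive interaction with contralateral and 2 a negative one with peritumoral fat. The Schwann, muscle and epithelial content of the other 16 libraries was not matched to that of the tumor-free ones, and its part in the interactions was not tested.

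**Figure D5:**
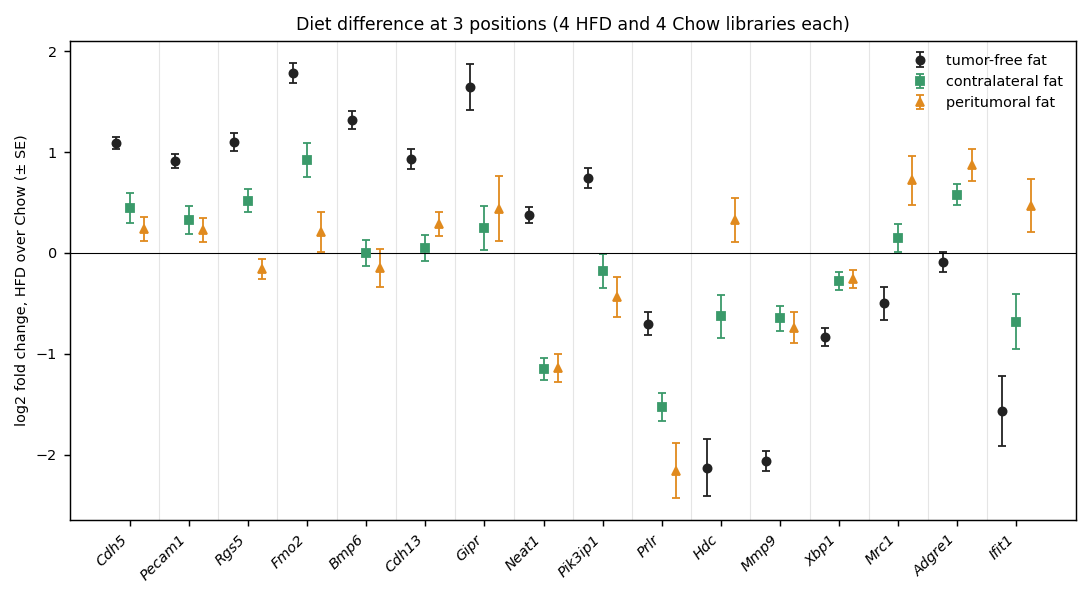
Diet difference (log2 fold change, HFD over Chow, with SE) of 16 genes in tumor-free (circles), contralateral (squares) and peritumoral fat (triangles), each from 4 HFD and 4 Chow libraries. Cdh5, Pecam1, Rgs5, Fmo2 and Bmp6 lie highest in tumor-free fat, Hdc, Mmp9 and Ifit1 lie lowest there, and Neat1 is above 0 in tumor-free fat and below 0 at the other positions.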

How the data were processed

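RNA of 24 libraries was measured, and the 8 of tumor-free fat make up the main comparison. The authors deposited whole-number counts per gene for 39017 genes, 37607 of them with a symbol, as a single matrix. Per the submitters' processing notes, TopHat, DESeq and the mm10 build were used; versions, the counting tool and its strand setting are not given in the sources used here. Overlapping genes and near-identical copies may therefore share reads. Groups come from the diet and sample type in the labels.

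Genes were filtered (10 counts, total of 15) and tested with edgeR 4.0.16 in R 4.3.3 (TMM, robust quasi-likelihood, Benjamini-Hochberg, threshold 0.05), on 8 libraries for the diet difference and on 16 for each interaction. The scripts were tested on simulated data, with 100 genes planted at each fold change, among 15827 genes for the main test. That is a far smaller share than the 24.9% called in the data. The rates that follow are therefore not the sensitivity of the tests reported here. The main test recovered 58% of planted 1.5-fold and 80% of 2-fold changes, with 12 false calls among 150. The contralateral interaction recovered 30% and 69%, and the peritumoral one 13% and 44%. In each simulated test the smaller change was recovered less often, and smaller differences can go uncalled. CPM are scaled with TMM factors of the 24 libraries, and list means are of log2(CPM + 0.5). SEs were taken from the fold change and its F statistic. Ratios of summed counts carry exact 95% intervals. Alternatives were DESeq2 1.42.0, limma 3.58.1, other scalings and filters, all 24 libraries, a replicate block and leaving out each replicate. Replicate numbers were not taken as pairs, and no 2 replicates agreed within sampling noise (mean chi-square per gene 3.74 to 8.95 on HFD, 11 to 55.5 on Chow). Figures were drawn with matplotlib 3.10.9.

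The members and the 64 gene lists were chosen with earlier results of these data known. Genes named are the key gene of each list, the called member with the lowest adjusted p not yet named, and the 12 highest-ranking genes each way with a log2 change of at least 1, at least 5 CPM and no overlap, 143 in all. Values are given for 108 of these and for 13 others chosen after their values were seen: Ifih1, Ddx60, Bst2, Cenpf, Ube2c, Ear2, Irf7, Hmgcs1, Fasn, Bmp3, Itgad, Lipf and Mfsd2a. Levels of Adipoq are given besides, as an adipocyte marker, outside this rule and these counts. Some genes of the lists are not reported here by name. Promoter sequences are those of RefSeq on GRCm38.p6.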

Additional observations from a re-analysis of the deposited data

Results flagged for a closer look

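The diet difference of 60 of the 121 genes checked differed between tumor-free fat and fat of tumor-bearing mice by the interaction test (adjusted p under 0.05, edgeR), 41 with contralateral fat, 40 with peritumoral fat and 21 with both. Over all genes, the interaction was called for 19.9% with contralateral and 20.6% with peritumoral fat. Many of the genes checked were named for their difference in the same tumor-free libraries, so these counts describe the genes chosen. Values are log2, the difference in tumor-bearing mice minus that in tumor-free fat, and both tests use the same tumor-free libraries.

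These genes of vessels, mural cells, adhesion and matrix had negative values. With contralateral and with peritumoral fat in turn, the value was -0.64 and -0.85 for Cdh5, -0.59 and -0.69 for Pecam1, -0.58 and -1.26 for Rgs5, -1.31 and -1.47 for Bmp6, and -0.88 and -0.64 for Cdh13. It was -1.13 for Prox1 with contralateral fat, and with peritumoral fat -0.73 for Gpihbp1, -0.64 for Acta2, -0.63 for Tns1, -0.68 for Nedd9 and -1.12 for Hmcn2. Progenitor and growth genes had -0.87 and -1.58 for Fmo2, and with peritumoral fat -0.83 for Zfp423, -0.81 for Bmp4 and -0.81 for Igf2. The nuclear transcript Neat1 had -1.53 and -1.51. Mammary epithelial and hormone genes had -0.84 and -1.47 for Prlr, -0.97 and -1.22 for Csn3 and -0.59 and -1.05 for Aqp5. Others below 0 were Pik3ip1 (-0.92 and -1.18), Kif5c (-0.97 and -0.98), Rnase2a (-3.74 and -5.52, fitted against Chow libraries at or near 0), Gipr (-1.40) and Lpin3 (-0.58) with contralateral fat, and Slc6a13 (-0.93) and Mlxipl (-0.74) with peritumoral fat.

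The following genes had positive values. Of macrophage genes, the values were 0.66 and 0.95 for Adgre1, 0.65 and 1.22 for Mrc1 and, with peritumoral fat, 1.63 for Aif1. Interferon-stimulated genes had 0.90 and 1.70 for Bst2, and with peritumoral fat 2.04 for Ifit1, 1.81 for Irf7, 1.14 for Ddx60, 1.12 for Mx2 and 0.52 for Ifih1. Hdc had 1.5 and 2.46, Mmp9 1.40 and 1.32, Xbp1 0.55 and 0.56, Hspa5 0.40 and 0.78, and Azin1 0.43 and 0.55. With peritumoral fat, the value was 1.32 for Nfil3, 0.74 for Haus7 and 0.55 for Col1a1. With contralateral fat, adipocyte and mitochondrial genes had 0.84 for Cfd, 0.88 for Bmp3, 0.80 for Igf1, 0.89 for Sod3, 0.58 for Ndufa1, 0.51 for Ndufb8, 0.48 for mt-Co1, 0.43 for Acadm, 0.38 for Acaa2, 0.40 for Psat1, 0.41 for Plin1 and 0.38 for Cavin3. The remaining ones there were Ric3 (0.60), Sparc (0.55), Dusp4 (0.48), Tln2 (0.47) and Palmd (0.44).

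A single library lay far from the other 3 of its diet in 22 of 242 groups of 4 libraries (Dixon's criterion, which chance alone meets in about 1 of 20 groups), and in 9 of them it was Chow replicate 2. That library was highest of its group for Acly (2680 CPM), Agpat2 (313 CPM), Adrb3 (227 CPM), Gamt (10.5 CPM), Cdk1 (1.48 CPM), mt-Co1 (14000 CPM) and Rnase2a (0.0705 CPM, 1 count against 0), and lowest for Irf7 (34.7 CPM) and Mfsd2a (10.5 CPM). Chow replicate 1 was highest for Krt19 (364 CPM), Mki67 (32.9 CPM), Rap1gap2 (23.6 CPM), Tns1 (837 CPM) and Sgms2 (86.4 CPM), and Chow replicate 4 lowest for Gipr (0.706 CPM). On HFD, replicate 1 was lowest for Cd36 (3050 CPM) and Fasn (805 CPM), replicate 2 highest for Abat (59.0 CPM), and replicate 4 highest for Bmp4 (6.69 CPM) and Adgre1 (58.6 CPM) and lowest for Epcam (43.3 CPM) and Ifih1 (60.7 CPM).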

How the results depend on the processing

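The count of genes called, 3943, stood between 3074 and 4649 under the other fits: 3907 with DESeq2, 3951 with RLE size factors, 4022 with upper-quartile factors, 3727 without a filter on low counts, 3900 with a minimum of 1 CPM, 3930 without mitochondrial genes, 4649 with limma and 3074 with all 24 libraries in 1 fit. That last fit cut the lower genes to 1141, against 1783, and the contralateral interactions to 1556, against 3314, while limma gave 5255 peritumoral interactions, against 3456; the cause was not tested. Leaving out 1 replicate at a time gave 2990 to 4592 calls, 1751 to 2411 higher and 1232 to 2181 lower genes, 2435 to 3753 contralateral and 2522 to 3721 peritumoral interactions. The lowest count of calls was without HFD replicate 2 and the highest without Chow replicate 2.

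With the replicate number as a block, 3886 genes were called, of which 3545 were also called without it, and Mrc1 and Ear2 were called. Libraries of the same number were weakly correlated in their deviations from the group means (0.13, 0.19, -0.01 and -0.07 for numbers 1 to 4), so the numbers were not taken as pairs.

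Among 120 tested genes given with values, 1937 of 2037 values under an alternative kept their direction and their side of the threshold. In 82 a call was lost, over 18 genes, in 18 one was gained, over 5 genes, and 0 called values changed sign. With all 24 libraries in 1 fit the lost calls were those of Azin1, Prlr, Epcam, Krt19, Tnf, Trem2, Marco, Mki67, Mmp2, Neat1, Cenpf and Ube2c. Without a filter they were those of Epcam, Krt19, Tnf, Mki67, Pdgfra, Fkbp5 and Fasn, and with the replicate block those of Krt19, Tnf, Trem2, Ifit1, Mki67, Fkbp5 and Fasn. With upper-quartile factors Tnf was lost, with DESeq2 Tnf, and with limma Fkbp5 and Fasn. Depth limits the genes near 1 CPM, such as Tnf, Marco and Gipr, and p-values cover the spread of 4 libraries a diet.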

Other observations

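Mfsd2a, Itgad and Lipf, chosen after their values were seen, showed large differences. Mfsd2a, a carrier of lysophospholipids, stood at 1.43, 0.39, 0.436 and 1.49 CPM on HFD, against 18.7, 10.5, 18.2 and 19.6 CPM on Chow (-4.16 ± 0.38, adjusted p = 0.000102, edgeR). Itgad, an integrin subunit of macrophages, stood at 3.46, 13.8, 5.98 and 5.31 CPM on HFD, against 0.186, 0.352, 0.0652 and 0 CPM on Chow (adjusted p = 0.00133). Its summed counts were 456 on HFD and 9 on Chow, a ratio of 47.8 after scaling (95% exact interval 24.9 to 105, counting error only). Lipf, which encodes a lipase known from the stomach, stood at 2.81, 5.78, 4.23 and 5.43 CPM on HFD, against 0.0621, 0.0705, 0 and 0 CPM on Chow (adjusted p = 2.52e-06). Its summed counts were 295 on HFD and 2 on Chow, a ratio of 139 (interval 38.1 to 1150). Neither diet's libraries overlapped for any of these genes.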
